A study of Mus musculus with 2 samples.

Results

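The common gamma chain receptor genes and 2 STAT5-induced feedback genes were followed in mouse regulatory T cells (Tregs) made with and without Hopx. The 10 genes were Il2ra, Il2rb, Il2rg, Il7r, Il4ra, Il15ra, Il21r, Il9r, Cish and Socs2, and every probe set that the platform annotation assigns to one of them was taken. This gave 20 probe sets for 9 genes, out of 34945 probe sets and 18193 genes named in the same way. No probe set carried the symbol Il2rg in the annotation used, so the shared gamma chain itself was not analysed here.

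Hopx-deficient Tregs (Hopx-/- by the sample title) were set against Hopx-sufficient Tregs. Per the labels, both populations had been induced in vivo through dendritic cells, came from immunized animals, were sorted on CD25 and Foxp3 and were used directly ex vivo. Each genotype had 1 Affymetrix array, and the allele design, strain, age, immunizing agent and number of pooled mice are not given in the sources used here. Values are log2-type and had been centred by the authors on the mean of the 2 arrays for each probe set. A probe set therefore has a difference between arrays but no level, so whether a receptor or a Treg marker was detected cannot be checked. All differences are Hopx-deficient minus Hopx-sufficient on the log2 scale, after subtraction of the median over all named probe sets (0.0075), and no difference has a replicate error or a test.

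Receptors of this family share the gamma chain encoded by Il2rg and pair it with a private subunit that fixes the cytokine. The receptors signal through the kinases JAK1 and JAK3, mainly to STAT5 for interleukin (IL)-2, IL-7, IL-9 and IL-15, to STAT6 for IL-4 and to STAT3 for IL-21. Tregs carry the high-affinity IL-2 receptor, of which CD25 (Il2ra) is the alpha chain, and depend on IL-2 for Foxp3 expression and survival. STAT5 also induces Cish and Socs2, whose SH2-domain proteins dampen cytokine signalling, while IL-2 signalling lowers Il7r in T cells.

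STAT5 dimers bind the motif TTCNNNGAA, a palindrome that was searched once because it reads alike on both strands. RefSeq promoter windows (build GRCm38.p6), running 250 bases upstream of a start site and a short way into the transcript, were found for 8 of the 10 genes, all except Il2rb and Socs2. Of 9 windows from these genes (Il15ra has 2 start sites), 2 held the motif, those of Cish and Il7r. Among 32851 windows of the same length over all genes, 8.30% held at least 1 match and 0.457% held 2 or more. The windows of both genes are shown because they were the ones that held the motif. Each runs to base 30 of the transcript, with matches in capitals, for Cish at chr9:107296409-107296688 on the plus strand and for Il7r at chr15:9529847-9530126 on the minus strand.
Cish: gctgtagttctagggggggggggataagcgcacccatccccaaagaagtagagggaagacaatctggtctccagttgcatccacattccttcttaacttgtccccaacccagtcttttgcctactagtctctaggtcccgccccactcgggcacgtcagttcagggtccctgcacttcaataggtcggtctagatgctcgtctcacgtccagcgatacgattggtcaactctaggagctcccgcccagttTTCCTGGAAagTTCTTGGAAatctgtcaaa
Il7r: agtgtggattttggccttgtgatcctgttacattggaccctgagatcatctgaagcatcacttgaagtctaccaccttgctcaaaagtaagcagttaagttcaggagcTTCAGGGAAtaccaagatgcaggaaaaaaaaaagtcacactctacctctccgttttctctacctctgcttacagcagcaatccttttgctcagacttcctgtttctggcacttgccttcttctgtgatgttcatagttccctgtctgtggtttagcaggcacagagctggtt
The Cish matches, TTCCTGGAA and TTCTTGGAA, span bases 1 to 9 and 12 to 20 from the annotated start. The Il7r match, TTCAGGGAA, lies upstream, at bases -142 to -134. A match is a run of letters only, and binding was not measured.

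Of the 9 measured genes 6 were higher and 3 lower in Hopx-deficient Tregs, where 50.1% of all genes were higher and 49.9% lower. The median member difference was 0.07, against 0.00078 over all genes. None of the 9 genes was 1.5-fold apart, a size that only 1.61% of all genes reached, so this count says nothing particular of the members. The largest fold of any of the 20 probe sets was 1.34. At a log2 difference of at least 0.32, 2 members (Il9r and Il7r) were higher and none was lower, against 4.09% of all genes higher and 6.93% lower. Il9r stood at percentile 98.4 and Il7r at percentile 97.1 of all genes.

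Ordered by difference, the genes ran Il9r, Il7r, Il2rb, Il4ra, Socs2, Il21r, Il2ra, Cish and Il15ra. The whole span was 0.64, and the largest step between neighbours was 0.12. Probe sets of the same gene had a pooled SD of 0.18 over 9010 genes with 2 or more, so no neighbours in this order were separated by more than the spread between probe sets. Il9r, Il7r, Il2rb and Il15ra were the 4 members whose own difference exceeded that SD, a size that 31.6% of all genes also exceeded.

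**Figure D1:**
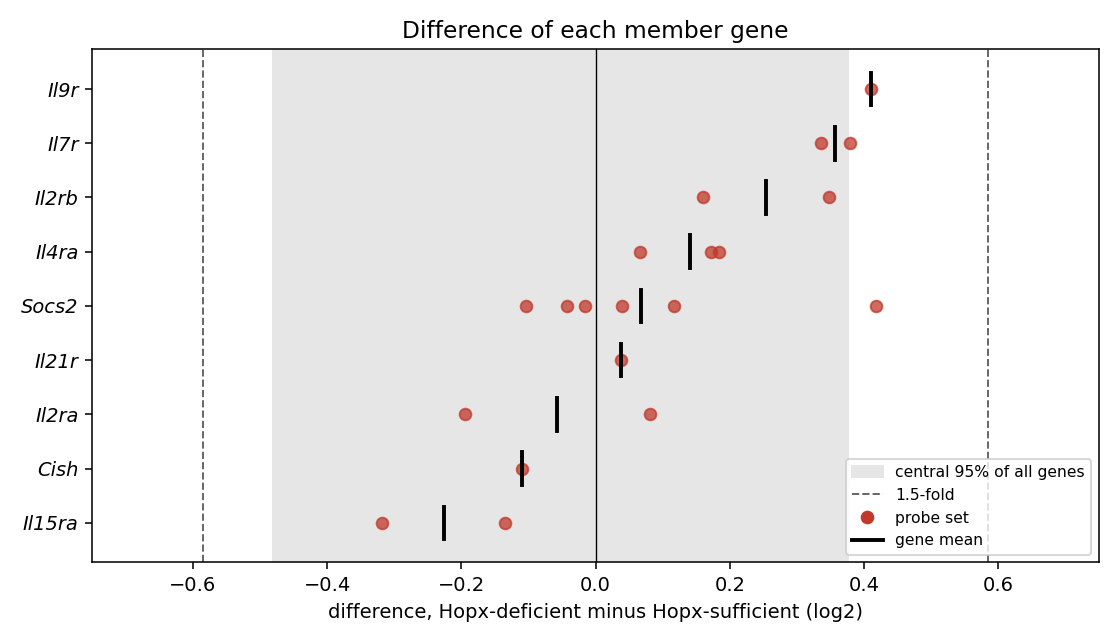
Points are probe set differences, Hopx-deficient minus Hopx-sufficient (log2), black bars are gene means, the grey band holds the central 95% of all genes (-0.48 to 0.38) and dashed lines mark 1.5-fold. Il9r, at 0.41, is the single gene mean outside the band, and no gene or probe set reaches a dashed line.

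The measured chains of the IL-2 receptor did not differ in 1 direction. Il2ra encodes the alpha chain that raises affinity for IL-2. Its probe set 1420692_at read 0.044 on the Hopx-deficient array, against -0.044 on the Hopx-sufficient array. The other, 1420691_at, read -0.093 on the Hopx-deficient array, against 0.093 on the Hopx-sufficient array. The 2 probe sets thus lay on opposite sides of 0, as in 40.4% of the 4695 genes with 2 probe sets, and the gene mean was -0.06 ± 0.19 (SD over 2 probe sets). CD25 was a sorting marker, so this value is no independent measure of the receptor.

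Il2rb encodes the beta chain, which IL-2 and IL-15 receptors share and which carries the docking sites for STAT5. Probe set 1417546_at read 0.177 in Hopx-deficient and -0.177 in Hopx-sufficient cells. Probe set 1448759_at read 0.084 in Hopx-deficient and -0.084 in Hopx-sufficient cells. Both were higher without Hopx, as in 29.5% of genes with 2 probe sets. Il2rb stood 1.19-fold higher (log2 difference 0.25 ± 0.13, SD over 2 probe sets), at percentile 92.1 of all genes.

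Il7r encodes the alpha chain of the IL-7 receptor, a survival receptor of resting and memory T cells that Tregs usually carry at low level. Probe set 1448575_at read 0.193 on the Hopx-deficient array, against -0.193 on the Hopx-sufficient array. Probe set 1448576_at read 0.171 on the Hopx-deficient array, against -0.171 on the Hopx-sufficient array. These were the closest repeat readings of any member measured more than once, with a mean difference of 0.36 ± 0.03 (SD over 2 probe sets), or 1.28-fold. Il7r ranked 536 from the top of 18193 genes, and 1.15% of genes with 2 probe sets had both at least 0.32 higher, a comparison chosen after the values were seen.

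Il15ra was the receptor gene that was lower without Hopx by both probe sets. Its product binds IL-15 with high affinity and can present it to neighbouring cells. Probe set 1448681_at read -0.155 in Hopx-deficient and 0.155 in Hopx-sufficient cells. Probe set 1422397_a_at read -0.064 in Hopx-deficient and 0.064 in Hopx-sufficient cells. Both readings below 0 occurred in 30.1% of genes with 2 probe sets, and the mean difference was -0.23 ± 0.13 (SD over 2 probe sets), or 1.17-fold lower. The IL-15 receptor thus had its alpha chain lower and its beta chain, Il2rb, higher on the same array.

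Il9r encodes the alpha chain of the IL-9 receptor, known from mast cells and T cells. Its 1 probe set read 0.209 in Hopx-deficient and -0.209 in Hopx-sufficient cells. The difference of 0.41 (1.33-fold) was the largest of the family and ranked 300 of 18193 genes, but no second probe set was available to repeat it. Markers of mast cells and group 2 innate lymphoid cells, which can carry this receptor, were higher in 6 of 8 cases, with a median of 0.12 and a range from -0.18 (Fcer1a) to 0.34 (Mcpt4). Their part in the Il9r difference was not tested.

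Il4ra encodes the alpha chain of the IL-4 and IL-13 receptors. Its 3 probe sets read 0.096, 0.090 and 0.037 on the Hopx-deficient array, against -0.096, -0.090 and -0.037 on the Hopx-sufficient array. All 3 were higher without Hopx, as in 19.7% of the 2366 genes with 3 probe sets, and the mean difference was 0.14 ± 0.07 (SD over 3 probe sets). Il21r, which encodes the private chain for IL-21, read 0.023 in Hopx-deficient and -0.023 in Hopx-sufficient cells. Its difference of 0.04 lay near the middle of all genes, at percentile 58.7.

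**Figure D2:**
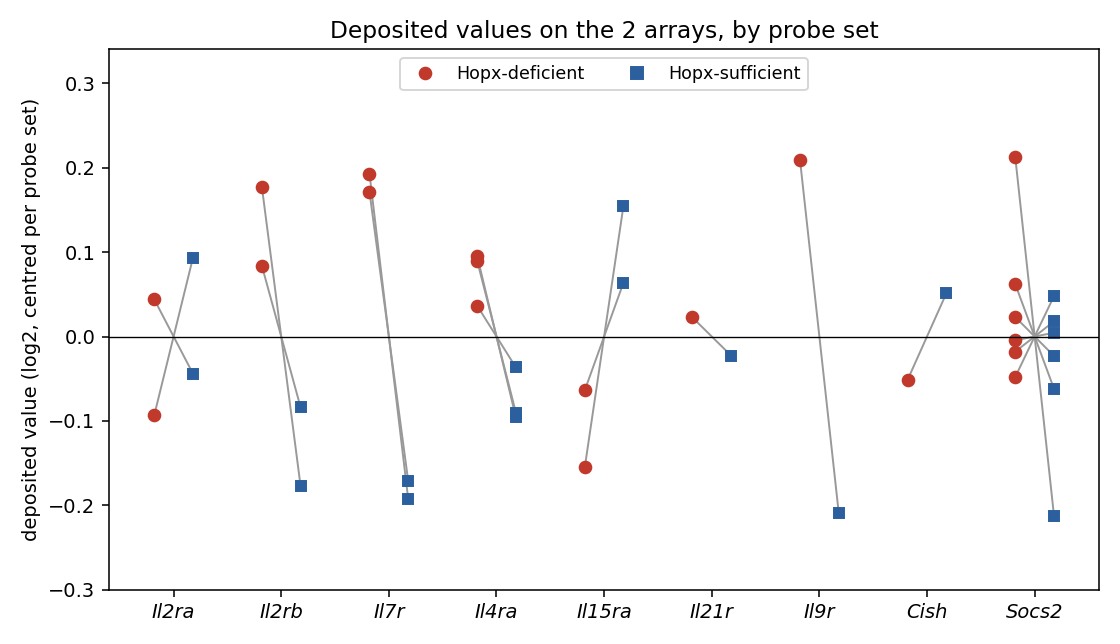
Each line joins the deposited, centred log2 values of 1 probe set on the Hopx-deficient array (red circles) and the Hopx-sufficient array (blue squares). The paired values mirror each other because of the centring, and Il7r has nearly coincident lines while the 6 of Socs2 fan out.

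The feedback genes were close to equal on the arrays. Cish encodes CIS, an SH2-domain inhibitor that STAT5 induces within the IL-2 response. Its 1 probe set read -0.051 in Hopx-deficient and 0.051 in Hopx-sufficient cells, a difference of -0.11, or 1.08-fold lower. The promoter with paired STAT motifs shown above thus belongs to a gene whose transcript differed by less than the spread between probe sets of a gene.

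Socs2 encodes a suppressor of cytokine signalling that is best known as a brake on the growth hormone receptor. Of its 6 probe sets, 3 were higher and 3 lower without Hopx, and the gene mean was 0.07 ± 0.19 (SD over 6 probe sets). Probe set 1442586_at read 0.212 in Hopx-deficient and -0.212 in Hopx-sufficient cells, a difference of 0.42. The other 5 differences ran from -0.10 to 0.12, so the gene mean rests largely on 1 probe set, and the median of the 6 was 0.01.

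The ligand genes were measured in the same cells, though other cells also make these cytokines. Of the 6 cytokine genes 2 were higher and 4 lower, with a median of -0.01, and none was 1.5-fold apart. Il15 differed by -0.43 and Il2, the main growth factor gene of activated T cells, by -0.40, each from 1 probe set. Il7, made chiefly by stromal cells, differed by 0.20 and Il4 by 0.06. Il21 differed by -0.01 with probe sets at -0.25 and 0.23. Il9 was listed at 0 on both arrays, as were 712 of the named probe sets, which leaves -0.01 after centring. Il9 is thus among the 4 lower genes through the centring alone, and without centring 3 were lower.

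Kinases and STATs of the pathway all lay slightly above 0. Of the 6 measured, 6 were higher, with a median of 0.11, and none was 0.32 or more apart. Jak1, the kinase that acts with JAK3 in these receptors, differed by 0.27 with probe sets from 0.13 to 0.41. Jak3, the kinase of the gamma chain, differed by 0.03. Stat5a differed by 0.15 with probe sets at -0.02 and 0.32, and Stat5b by 0.11. Stat3, downstream of IL-21, differed by 0.12 and Stat6, downstream of IL-4, by 0.03. Among the other SOCS genes, 3 of 6 were higher, the median was -0.0029 and the mean 0.02. Socs3, an inhibitor of receptors that use Il6st, differed by 0.34 with all 3 probe sets between 0.31 and 0.37. Socs4 differed by -0.20 with 4 probe sets from -0.49 to 0.29, and Socs1, Socs5, Socs6 and Socs7 lay between -0.02 and 0.04.

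Genes that STAT5 induces in T cells went both ways. Of 18 measured, members left out, 11 were higher and 7 lower, the median was 0.07, and 1 was past 1.5-fold. That gene was Gzmb, encoding granzyme B, at -2.16, and it makes the mean of the list -0.03, opposite in sign to the median. Bcl2, a survival gene, was at 0.40 with 5 probe sets between 0.29 and 0.50, and Socs3, also a SOCS gene above, at 0.34. The differences of Pim1, a STAT5-induced kinase gene, and Foxp3 were 0.29 and 0.28. Foxp3 was a sorting marker, like CD25, so its value is no independent measure. Ccnd2 and Cdk6, a cyclin and a kinase of the G1 phase, differed by -0.19 and -0.27. Ccnd3, another cyclin of that phase, was higher at 0.28, with 3 probe sets from -0.23 to 0.83.

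Genes that IL-2 signalling lowers lay on the side of Il7r. All 7 measured genes were higher in Hopx-deficient Tregs, with a median of 0.33, against 0.00078 over all genes, and 4 were higher by at least 0.32. Klf2, a factor of quiescence and recirculation, differed by 0.56. Il6st, the signal chain of the IL-6 receptor, differed by 0.40, and Il6ra, its ligand-binding chain, by 0.33. Bcl6, a repressor that opposes STAT5 at shared targets, was at 0.39. Il17a, at 0.02, was the lowest, and no gene of the list was 1.5-fold apart. Klf2 was known to be higher from earlier results of these data, so the direction of the list is not independent evidence. T cell markers (6 of 7 higher, median 0.28), Treg markers (6 of 7, median 0.33) and macrophage markers (10 of 12, median 0.33) were higher by about as much, and their part in the difference of this list was not tested. Il6ra and Il6st also belong to the class I receptors below.

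**Figure D3:**
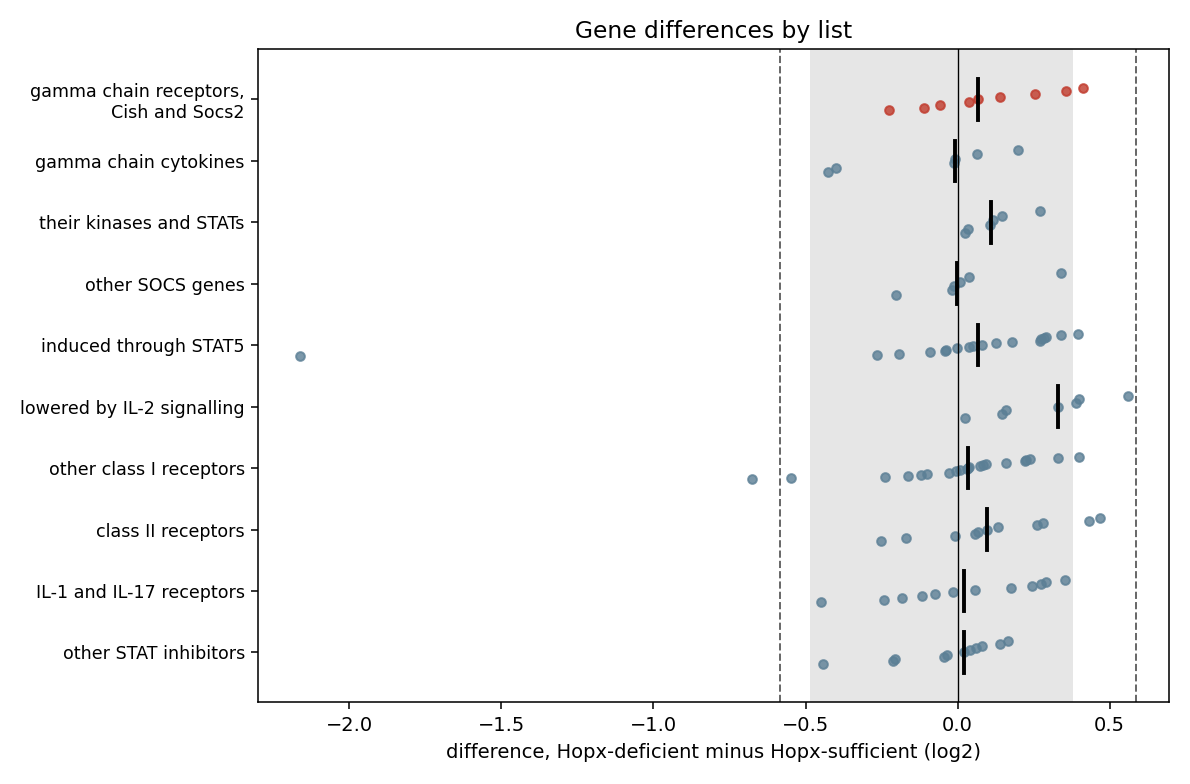
Points are gene differences, Hopx-deficient minus Hopx-sufficient (log2), for the members (red) and the 9 related lists (blue). Black bars are medians, the grey band holds the central 95% of all genes and dashed lines mark 1.5-fold. The list lowered by IL-2 signalling has its median at 0.33, and Gzmb is the point at -2.16.

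Other cytokine receptors were compared to place the gamma chain family. Of 21 other class I receptor genes, 13 were higher and 8 lower, with a median of 0.03. Csf2rb2 was 1.60-fold lower (-0.67) and was the single gene of this list past 1.5-fold, and the closely related Csf2rb had probe sets at -0.41 and 0.35. The arrays may not separate those sequences. Il12rb1, a chain of the IL-12 and IL-23 receptors, was at -0.55. Of 11 class II receptor genes 8 were higher, with a median of 0.10, led by Ifnar1 of the type I interferon receptor (0.47), Il10rb (0.43, both probe sets at 0.43) and Ifngr1 (0.28). Receptors of the IL-1 and IL-17 families split evenly, 6 of 12 on each side, with a median of 0.02. Il1rl2 was at -0.45 but its probe sets were at -0.91 and 0.01, while Il17rb was at 0.35 and Il17rc at 0.29. The median of the 7 measured gamma chain receptor genes was 0.14, with 5 higher and 2 lower, and the difference between these lists was not tested. Of 11 other inhibitors of cytokine and STAT signalling 6 were higher, with a median of 0.02 and a mean of -0.04, and Usp18 (-0.44), Ptpn2 (-0.21) and Pias2 (-0.21) lay farthest from 0.

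Differences of this size also occurred in genes that mark the sorted population and other cells. In bulk RNA, fewer cells of a type and less RNA per cell cannot be told apart. T cell markers were higher in 6 of 7 cases (median 0.28, from -0.01 for Cd4 to 0.33 for Cd28) and Treg markers in 6 of 7 (median 0.33, from -0.06 for Il2ra to 0.53 for Nrp1). B cell markers, of cells that also carry Il4ra and Il21r, were lower in 8 of 8 (median -0.15, from -0.48 to -0.07). Markers of macrophages, which also carry Il4ra and Il15ra, were higher in 10 of 12 (median 0.33, from -0.38 for Lyz2 to 0.89 for Mrc1), dendritic cell markers in 2 of 7 (median -0.05, mean 0.02, from -0.20 to 0.31), CD8 T and NK cell markers in 3 of 8 (median -0.13, from -0.42 to 0.43) and neutrophil markers in 1 of 6 (median -0.08, from -0.21 to 0.13). The differences of Il7r and Il2rb were thus about as large as the medians of the T cell and Treg lists. The Treg list includes the genes of both sorting markers, Foxp3 and Il2ra, and Il2ra is also a member. The part of cell composition in the receptor differences was not tested. The Hopx transcript was lower by 35.6-fold in Hopx-deficient cells. The 18 hybridization spike-in probe sets ranged from -0.22 to 0.01 with a median of -0.12, so they were centred below 0. The differences of Il2ra and Cish fall into this span, which ends next to that of Il15ra. Because the span is shifted to the lower side, it gives no technical range for the members above 0.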

How the data were processed

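Total RNA of 1 Hopx-deficient and 1 Hopx-sufficient sort was hybridised as biotin-labelled target, per the labels. The authors deposited log2-type values centred on the mean of the 2 arrays: the columns mirror each other with row sums within 1e-06. The scanner software, summarisation and normalization between arrays are not given in the sources used here. The log base is not stated either: base 2 was assumed, and natural logs would enlarge every difference by a factor of 1.44.

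Gene symbols came from the 2016 platform annotation and were updated by gene ID (34741 of 34945 found in a GRCm38.p6 gene table). Left out were 9160 probe sets without a symbol, 932 carrying more than 1 symbol and 64 controls. A gene's value is the mean over its probe sets. Thresholds of 1.5-fold, of a log2 difference of 0.32 and of 2-fold are rules of size, not tests. With 1 array per genotype no p-value was computed, and the number of arrays limits the precision.

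Members, 9 pathway lists and 8 marker lists were chosen with earlier results of these data known. Named genes were all members and all measured cytokines, kinases and SOCS genes. In each other pathway list they were the 3 farthest from 0 and any 1.5-fold apart, and Hopx and Foxp3 were added. Pim1, Ccnd2, Ccnd3, Cdk6, Il6ra, Il17a and Csf2rb were chosen after their values were seen. Of the marker lists, 4 are given with the genes at their extremes, also chosen after their values were seen, and 4 by range only. With 2 arrays no genes can be named for a like pattern. The alternatives were no centring, the median or most different probe set, removal of probe sets with a suffix or with the finest value steps, natural logs, platform symbols, other thresholds and leaving out Il2ra. The code was tested on simulated data. Python 3.11.15, numpy 2.4.6, pandas 2.3.3 and matplotlib 3.10.9 were used.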

Additional observations from a re-analysis of the deposited data

How the results depend on the processing

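No paired analysis was possible because there was 1 array of either genotype, and leaving out an array leaves no comparison. Each of the 9 members kept its sign under all alternatives that gave a value, and Il4ra has none without suffixed probe sets. Several alternatives could not change a sign. Natural logs only rescale, platform symbols gave the same member values, and the choice of probe set leaves Il21r, Il9r and Cish unchanged. The kept signs are therefore weak support, and the Il2ra probe sets themselves lay on opposite sides of 0. A shift was called small when under the pooled SD of probe sets (for a median, divided by the root of the number of genes), or within 1.5 times for a count. By that rule 333 of 363 values moved little and 30 moved more. No member gene or list median was past 1.5-fold, so a change of sign from beyond that size could not occur. Medians near 0 did change sign in 4 lists: the cytokines came to 0.028 without the finest value steps, and the other SOCS genes to at most 0.024 (with the median probe set). The IL-1 and IL-17 receptors came to -0.0047 with the most different probe set and to -0.0026 without the finest steps, and the other class I receptors are given below.

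With the most different probe set, Socs2 came to 0.42 and the median member to 0.18. The medians became -0.13 for the cytokines, 0.20 for kinases and STATs and -0.093 for other SOCS genes. Counts past 1.5-fold became 2 for STAT5-induced genes, 1 for IL-2-lowered genes, 3 for other class I receptors, 1 for class II receptors and 1 for IL-1 and IL-17 receptors. Read as natural logs, 1 member (Il9r) passed 1.5-fold, as did 1 cytokine, 1 IL-2-lowered gene (list median 0.48), 2 other class I receptors, 2 class II receptors, 1 IL-1 or IL-17 receptor and 1 other inhibitor. At a log2 difference of 0.32 the counts in either direction were 2 members, 2 cytokines, 1 other SOCS gene, 3 STAT5-induced genes, 4 IL-2-lowered genes, 4 other class I receptors, 2 class II receptors, 2 IL-1 and IL-17 receptors and 1 other inhibitor. At 2-fold, 0 other class I receptors remained past the threshold. Without suffixed probe sets, 3 kinases and STATs were higher and the other class I median was -0.0078; fewer genes then have a value. No member probe set was among the 3108 with the finest value steps.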

Other observations

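Set side by side as ligand and private receptor chain, the pairs differed in direction, a view chosen after the values were seen. Other cells also make these cytokines, and whether the ligand genes were detected cannot be checked. Both genes of the IL-15 pair were lower on the Hopx-deficient array, Il15 at -0.43 from 1 probe set and Il15ra at -0.23. The beta chain gene Il2rb, which IL-15 and IL-2 receptors share, was higher, at 0.25. Both genes of the IL-7 pair were higher, Il7 at 0.20 and Il7r at 0.36. In the IL-2 pair Il2 was at -0.40 from 1 probe set, again beside the shared Il2rb at 0.25. Il2ra was at -0.06, with its probe sets on opposite sides of 0. Il4 and Il4ra were at 0.06 and 0.14, and Il21 and Il21r at -0.01 and 0.04. Il9 was listed at 0 on both arrays, while Il9r was at 0.41. Socs3, not a member, differed more (0.34) than Cish (-0.11) or Socs2 (0.07), with all 3 of its probe sets on the same side of 0.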
